A study of Mus musculus with 10 samples.

Results

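Potassium leak channels of the K2P family and hyperpolarization-activated cation channels of the HCN family were examined in lumbar motor neurons of mice with muscle-secreted neurturin and of wild-type littermates. The genes were taken by symbol, 6 K2P genes (Kcnk1, Kcnk2, Kcnk3, Kcnk9, Kcnk10 and Kcnk12) and 3 HCN genes (Hcn2, Hcn3 and Hcn4), 9 of the 51912 genes in the count files. Of these 9, 7 passed the filter on low counts that left 11630 genes to test, and Kcnk9 and Hcn3 did not. In the HSA-NRTN line the human skeletal actin promoter drives neurturin, a growth factor related to GDNF, in muscle fibres, so its level in the captured neurons is no check of the labels. The wild-type group carries no transgene. Each group had 5 mice, 3 females and 2 males, whose age and strain the labels do not state. Each library was made by Smart-seq2 from 1 pool of about 50 laser-captured cells of 1 mouse. Cells had a visible nucleolus and an area above 200 μm2, which leaves out small motor neurons. The study's title links muscle-secreted neurturin with myofibre metabolism and slow motor neuron identity. For these genes, the comparison asks whether transcripts of channels active near rest differ between the genotypes.

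K2P channels pass potassium at rest and hold the membrane near the potassium equilibrium potential. HCN channels open on hyperpolarization, pass sodium and potassium, and are shifted to different degrees by cyclic AMP. With inward rectifiers and the sodium leak channel they set a motor neuron's input resistance and so the current needed to fire it, and slow motor neurons are known for a high input resistance and a low rheobase.

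The 10 libraries held 1875971 to 6641695 gene counts and 14090 to 19675 detected genes. Levels are given as CPM, counts scaled to a common library size with TMM factors. Summed levels of 8 motor neuron markers ran from 13661 to 26776 CPM in HSA-NRTN and from 18819.5 to 27569 CPM in wild-type libraries, with all 8 detected. Nefm and Nefh made up most of these sums, with means of 11765 and 3529 CPM in HSA-NRTN and 17150 and 4519 CPM in wild-type libraries. Of the 8 markers, 5 had a positive log2 fold change and 3, Nefm and Nefh among them, a negative one. For Chat every HSA-NRTN library lay above every wild-type library, as for 0.645% of all genes tested. The margin was narrow, with a lowest HSA-NRTN value of 98.5 and a highest wild-type value of 98.1 CPM (edgeR, unadjusted p = 0.104). HSA-NRTN replicate 2 had the fewest gene counts and the highest summed level of astrocyte markers (1316 CPM), oligodendrocyte markers (1499 CPM) and endothelial and mural markers (82.1 CPM). The oligodendrocyte sum of the other 9 libraries was 207 to 685 CPM. Single genes weighed heavily in some sums. In group means S100b gave 677 of 890 CPM of the astrocyte sum in HSA-NRTN and 695 of 842 CPM in wild-type libraries. Rgs5 gave 19.8 of 24.6 CPM of the endothelial and mural sum in HSA-NRTN libraries. Every marker of the 7 lists had a count in at least 1 library. No summed level passed for genotype after adjustment over the 7 lists (exact permutation tests, adjusted p = 0.204 to 0.817). The lowest unadjusted p was that of the endothelial and mural list, at 24.6 ± 32.2 CPM in HSA-NRTN and 5.48 ± 3.49 CPM in wild-type libraries (SD, n = 5 in each group; exact p = 0.0317). In such pools, fewer cells that carry a transcript and less of it per cell cannot be told apart.

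Levels of the 9 genes spanned a wide range. Per kb of exon, Kcnk1, which encodes the weakly conducting channel TWIK-1, was highest at 29.7 ± 7.88 CPM per kb (SD, n = 10 libraries). Kcnk3, the gene of the acid-sensitive channel TASK-1, followed at 16.6 ± 8.20 CPM per kb. Kcnk2 and Kcnk10, which encode the mechano- and lipid-sensitive channels TREK-1 and TREK-2, were at 2.14 ± 1.54 and 2.07 ± 1.05 CPM per kb. These came next in order, well below Kcnk3. Kcnk12, the gene of THIK-2, was at 1.70 ± 1.03 CPM per kb and Hcn2 at 1.69 ± 0.808 CPM per kb. Hcn4 (0.956 ± 1.29 CPM per kb), Hcn3 (0.596 ± 0.489 CPM per kb) and Kcnk9, which encodes TASK-3 (0.364 ± 0.831 CPM per kb), were lowest.

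In this order, 4 of 8 neighbouring pairs passed (exact paired permutation test on log2(CPM per kb + 0.1) over 10 libraries, two-sided, adjusted over 8 pairs). The order was taken from the same values, so neither the pairs nor their directions were chosen beforehand. Kcnk1 lay above Kcnk3 in 9 of 10 libraries, by 0.95 ± 0.61 on the log2 scale (SD; exact test, adjusted p = 0.0234). Before scaling by exon length their means over 10 libraries were level, at 66.3 CPM for Kcnk1 and 66.2 CPM for Kcnk3. This step thus rests largely on their exon lengths, 2235 and 3976 bases. Kcnk3 lay above Kcnk2 in 10 of 10 libraries, by 3.003 ± 1.23 on that scale (exact test, adjusted p = 0.0156). Hcn2 lay above Hcn4 in 9 of 10 libraries and Hcn3 above Kcnk9 in 8 of 10 (exact tests, adjusted p = 0.0260 and 0.0391). Hcn3 lay above Kcnk9 by 1.40 ± 1.51 (SD). Kcnk9 had a count in 4 HSA-NRTN libraries and 1 wild-type library, and in the rest the added 0.1 sets its value. Before scaling by exon length the means of these pairs were in reverse order, at 5.41 CPM for Hcn2 and 5.85 CPM for Hcn4. Hcn3 was then at 2.48 CPM and Kcnk9 at 4.48 CPM. The steps from Kcnk2 to Kcnk10, Kcnk10 to Kcnk12, Kcnk12 to Hcn2 and Hcn4 to Hcn3 did not pass (exact tests, adjusted p = 0.528 to 0.996).

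**Figure D1:**
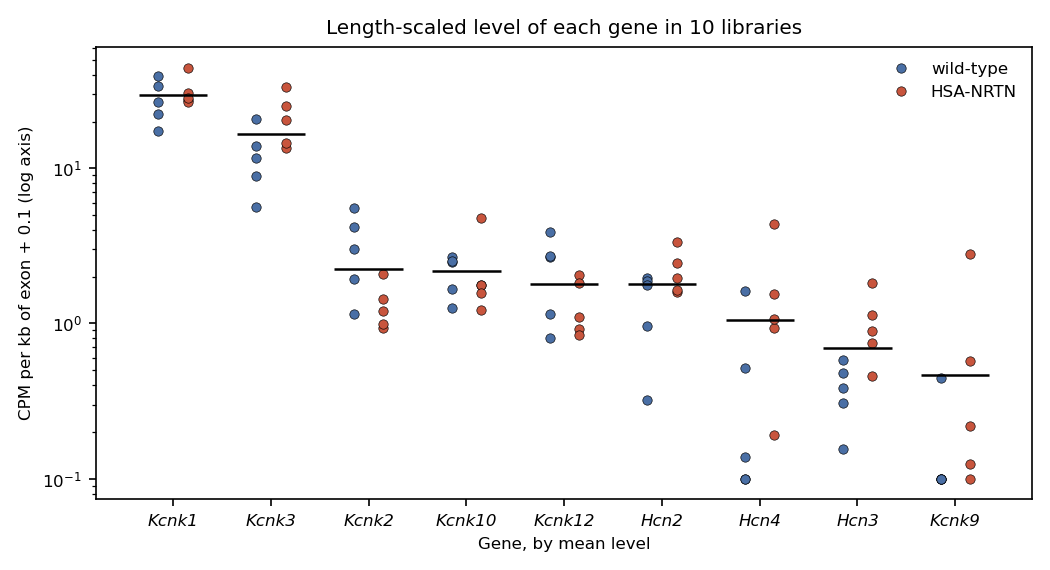
Level of each gene in CPM per kb of exon, with 0.1 added, on a log axis, in the 5 wild-type (blue) and 5 HSA-NRTN (red) libraries. Black lines mark means over 10 libraries, and Kcnk1 and Kcnk3 stand above the other genes.

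Of the 7 genes tested, none passed the comparison of genotypes at an adjusted p under 0.05 in edgeR's quasi-likelihood test, which 0.0086% of all genes tested did (1 of 11630). Unadjusted, 2 of the 7 had a p under 0.05, where 4.83% of all genes did. Kcnk3 was on the higher side in HSA-NRTN pools, with 2.41% of all genes, and Kcnk2 on the lower side, with 2.42%. DESeq2, which also took in Hcn3 and Kcnk9, called none of the 9 (0.8% of all genes) and gave Kcnk2, Kcnk3 and Hcn3 an unadjusted p under 0.05 (5.21% of all genes). Limma voom called none and gave such a p to Kcnk3 alone. The log2 fold change was positive for 5 and negative for 2 of the 7 (median 0.18), and positive for 48.6% of all genes tested (median -0.015). Genotype groups overlapped in CPM for all 7, while they did not overlap for 1.25% of all genes tested.

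**Figure D2:**
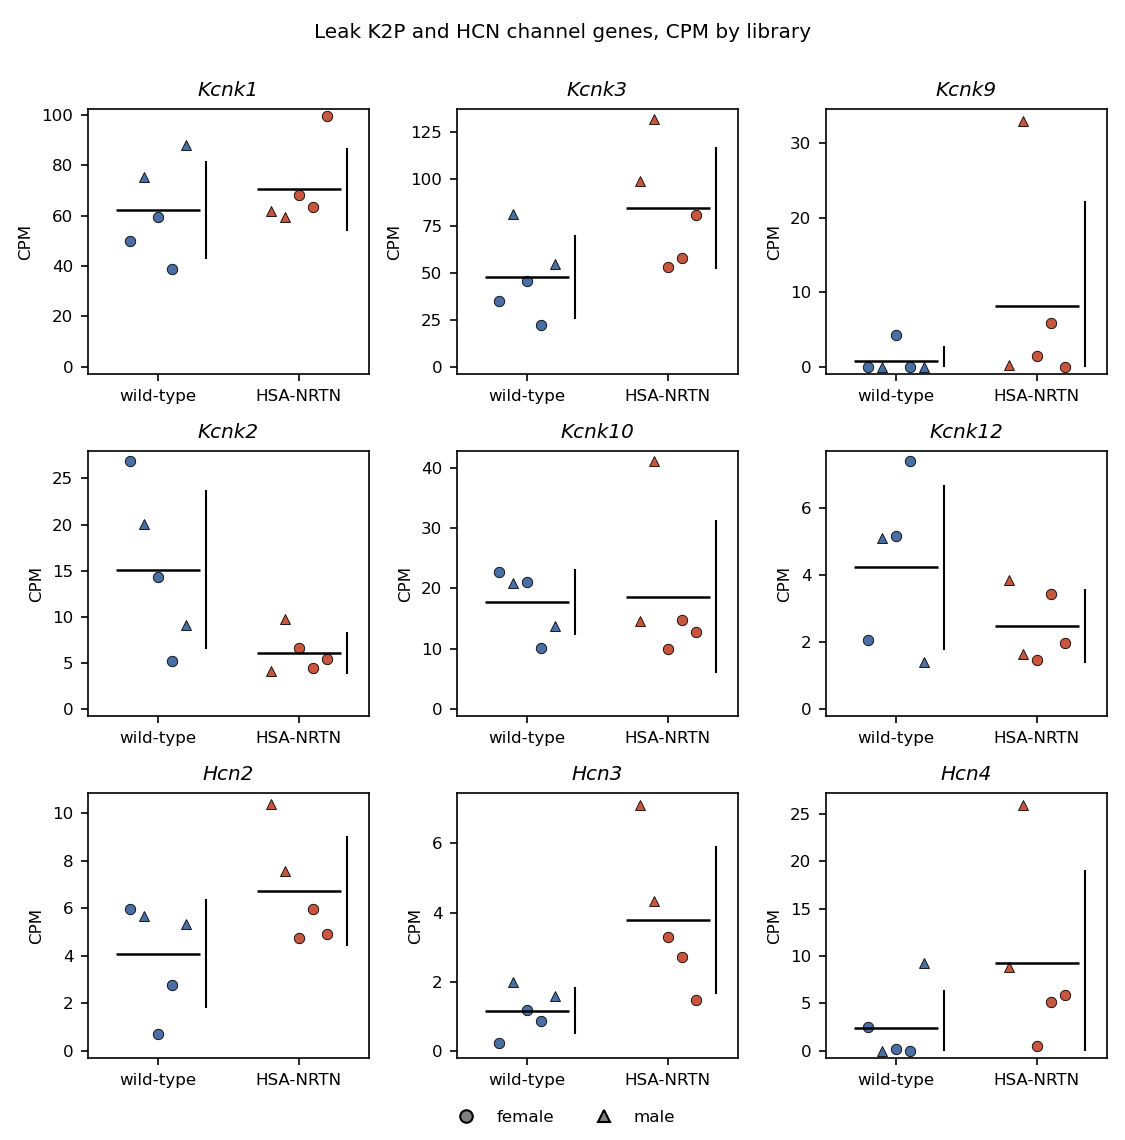
CPM of the 9 genes in each library, by genotype, with circles for females and triangles for males. Horizontal lines are means and vertical lines 1 SD on each side, drawn from 0 where the mean less the SD is below 0, and single high libraries are seen for Kcnk9, Kcnk10 and Hcn4.

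Kcnk3 (ENSMUSG00000049265) lies on chromosome 5 of GRCm38 from 30588170 to 30625271, forward strand. It encodes a leak channel that transmitters acting through Gq-coupled receptors close in motor neurons. It was at 99.1, 132, 53.3, 57.7 and 80.9 CPM in HSA-NRTN and at 34.9, 81.6, 45.7, 22.0 and 54.7 CPM in wild-type replicates 1 to 5. All 5 HSA-NRTN libraries lay above the wild-type median, 2 of them above every wild-type library, and 3 wild-type libraries lay below every HSA-NRTN library. The mean was 84.6 ± 32.2 against 47.8 ± 22.5 CPM (SD, n = 5 per group), a log2 fold change of 0.82 (SE 0.36, 95% interval 0.11 to 1.53) that did not pass over all genes (edgeR, adjusted p = 0.968). Intervals of fold changes are normal approximations. Its exons share 229 bases with the opposite-strand gene Gm9899, which had 185 counts in all, and reads are not separated by strand.

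Kcnk3 also had higher values in males. In HSA-NRTN pools its mean was 64.0 CPM in 3 females and 115 CPM in 2 males, and in wild-type pools 34.2 and 68.1 CPM. The log2 fold change of males against females, with genotype in the model, was 0.92 (SE 0.28) and did not pass (edgeR, adjusted p = 0.367; 0.0086% of all genes did). Of the 7 genes, Kcnk3 alone had an unadjusted p under 0.05 for sex, where 11.2% of all genes tested did. Within females and within males alike, every HSA-NRTN library lay above every wild-type library, a pattern looked for after the values were seen. This held for Kcnk3 as 1 of the 7 genes tested, and for Hcn3, against 1.37% of all genes tested (2.56% in either common direction). With sex as a covariate the log2 fold change between genotypes was 0.85 (edgeR, unadjusted p = 0.00863). Without HSA-NRTN replicate 2 it was 0.60 (edgeR, unadjusted p = 0.115). No adjusted p was under 0.05 in either fit.

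Kcnk9 (ENSMUSG00000036760, chromosome 15, 72501089 to 72546340, reverse strand) encodes TASK-3, which can pair with TASK-1. It had 1, 61, 8, 41 and 0 counts in HSA-NRTN replicates 1 to 5, and the wild-type replicates had 0, 0, 18, 0 and 0 counts. HSA-NRTN replicate 2 thus held 61 of the 111 counts of its group, and wild-type replicate 3 all of those of the other. Mean levels were 8.11 ± 14.1 against 0.845 ± 1.89 CPM (SD, n = 5 per group; exact permutation test, p = 0.206). The ratio of means, 9.61, was 2.25 without HSA-NRTN replicate 2. A count of 0 allows up to 3 counts, which is 0.428 to 1.62 CPM over all libraries. In the libraries where Kcnk9 had 0 counts it is 0.516 to 0.850 CPM.

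Kcnk1 (ENSMUSG00000033998, chromosome 8, 125995170 to 126030685, forward strand) was the most even of the 9 genes, with a coefficient of variation of 26.5% over 10 libraries. It was at 61.7, 59.4, 68.1, 63.6 and 99.4 CPM in HSA-NRTN and at 50.0, 75.3, 59.4, 38.7 and 87.9 CPM in wild-type replicates 1 to 5. The groups overlapped widely, at 70.4 ± 16.5 against 62.3 ± 19.6 CPM (SD, n = 5 per group), with a log2 fold change of 0.18 (SE 0.29, 95% interval -0.38 to 0.74) (edgeR, adjusted p = 0.999). In females every HSA-NRTN library lay above every wild-type library, with means of 77.0 and 49.4 CPM. In males every HSA-NRTN library lay below, with means of 60.6 and 81.6 CPM. Such opposite separation was found in 1.78% of all genes tested. The interaction of genotype and sex, a log2 difference of -1.07 (SE 0.52), did not pass (edgeR, adjusted p = 0.922). None of the 7 genes passed for the interaction or had an unadjusted p under 0.05 for it, where 0% and 5.14% of all genes did.

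Kcnk2 (ENSMUSG00000037624, chromosome 1, 189207930 to 189402273, reverse strand), the TREK-1 gene, had its lower values in HSA-NRTN pools. It was at 4.15, 9.73, 6.59, 4.42 and 5.42 CPM in HSA-NRTN and at 26.9, 20.1, 14.3, 5.16 and 9.12 CPM in wild-type replicates 1 to 5. No HSA-NRTN library lay above the wild-type median, and 3 wild-type libraries lay above every HSA-NRTN library. The mean was 6.06 ± 2.26 against 15.1 ± 8.64 CPM (SD, n = 5 per group), a log2 fold change of -1.33 (SE 0.57, 95% interval -2.44 to -0.21) that did not pass over all genes (edgeR, adjusted p = 0.967). Its exons share 604 bases with an antisense gene, A430027H14Rik, which had 94 counts in all. Wild-type replicate 1, where Kcnk2 was highest, had the fewest detected genes of the 10 libraries (14090). Without that library the log2 fold change of Kcnk2 was -1.02 (edgeR, unadjusted p = 0.0979). With 1 library left out in turn it ran from -1.55 to -1.02. With genes detected as a covariate it was -1.02 (edgeR, unadjusted p = 0.128).

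Kcnk10 (ENSMUSG00000033854, chromosome 12, 98429437 to 98578310, reverse strand), the TREK-2 gene, was at 14.5, 41.1, 9.89, 14.7 and 12.8 CPM in HSA-NRTN and at 22.7, 20.96, 21.1, 10.2 and 13.7 CPM in wild-type replicates 1 to 5. HSA-NRTN replicate 2 was the highest library of all, and the other 4 of its group lay below the wild-type median. The log2 fold change was 0.055 (SE 0.47, 95% interval -0.87 to 0.98) (edgeR, adjusted p = 0.999), and -0.45 without that library. The glial and vascular marker sums of HSA-NRTN replicate 2, given above, were highest in the library where Kcnk3, Kcnk9, Kcnk10 and Hcn4 were highest too, and their part in these values was not tested.

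Kcnk12 (ENSMUSG00000050138, chromosome 17, 87745801 to 87797994, reverse strand) encodes THIK-2, a subunit largely kept inside the cell when expressed alone. It was low, at 3.86, 1.62, 1.47, 3.42 and 1.97 CPM in HSA-NRTN and at 2.07, 5.10, 5.16, 7.40 and 1.39 CPM in wild-type replicates 1 to 5. Wild-type libraries held both the highest and the lowest value. The log2 fold change was -0.76 (SE 0.75, 95% interval -2.23 to 0.71) (edgeR, adjusted p = 0.999).

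Summed per kb, the 6 K2P genes reached 58.0 ± 10.9 CPM per kb in HSA-NRTN pools and 47.2 ± 13.6 CPM per kb in the wild-type group (SD, n = 5 per group), as a description with no test. Kcnk1 and Kcnk3 together made up 85.5% to 94.8% of that sum in HSA-NRTN libraries, and 77.5% to 92.8% of it in the wild-type group. Kcnk3 alone held 28.4% to 47.4% with the transgene, and 19.2% to 32.4% without. The level of Kcnk3 per kb exceeded that of Kcnk1 in HSA-NRTN replicate 2, at a ratio of 1.25, and lay below it in the other 9 libraries. Like the shares, this order depends on the scaling by exon length.

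**Figure D3:**
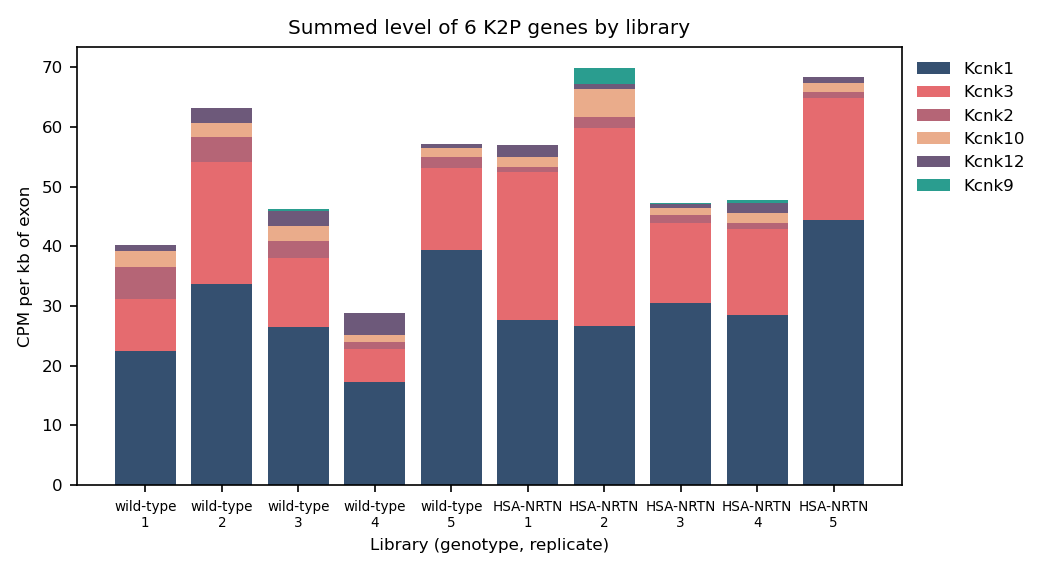
Summed level of the 6 K2P genes in CPM per kb of exon, 1 bar per library, stacked by gene. Kcnk1 and Kcnk3 fill most of each bar.

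Among the HCN genes, Hcn3 (ENSMUSG00000028051, chromosome 3, 89146074 to 89160196, reverse strand), a subunit little affected by cyclic AMP, had 24, 8, 18, 19 and 6 counts in HSA-NRTN replicates 1 to 5, and the wild-type replicates had 1, 7, 5, 5 and 8 counts. In the same order these were 7.12, 4.32, 3.30, 2.71 and 1.48 CPM with the transgene, and 0.230, 1.98, 1.17, 0.861 and 1.59 CPM without. All 5 HSA-NRTN libraries lay above the wild-type median and 4 above every wild-type library. The mean was 3.79 ± 2.13 against 1.17 ± 0.673 CPM (SD, n = 5 per group), a ratio of 3.25 (exact permutation test, two-sided, unadjusted p = 0.0238, where this design cannot give less than 0.00794). The same exact test gave Kcnk2 a p of 0.0556, Kcnk3 one of 0.0714 and the rest of the 9 genes 0.135 to 0.944. In the fit with no filter beyond 1 count the log2 fold change of 1.65 did not pass (edgeR, SE 1.31, adjusted p = 0.612). Without wild-type replicate 1, the library with 1 count, the ratio was 2.70 (exact permutation test, p = 0.0556). Its exons share 711 bases with the opposite-strand gene Pklr, which had 0 counts.

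Hcn2 (ENSMUSG00000020331, chromosome 10, 79716634 to 79736108, forward strand) encodes a subunit strongly shifted by cyclic AMP. It was at 10.4, 7.57, 4.76, 5.99 and 4.93 CPM in HSA-NRTN and at 5.97, 5.66, 0.704, 2.75 and 5.35 CPM in wild-type replicates 1 to 5. Of the HSA-NRTN libraries 3 lay above every wild-type library, and 2 wild-type libraries lay below every HSA-NRTN library. The mean was 6.73 ± 2.33 against 4.09 ± 2.28 CPM (SD, n = 5 per group), a log2 fold change of 0.71 (SE 0.70, 95% interval -0.66 to 2.08) (edgeR, adjusted p = 0.999).

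Hcn4 (ENSMUSG00000032338, chromosome 9, 58823412 to 58863175, forward strand), the slowly opening, cyclic AMP-sensitive pacemaker subunit of the heart, varied most among the 7 tested genes, with a coefficient of variation of 135%. It was at 8.90, 25.9, 0.550, 5.13 and 5.92 CPM in HSA-NRTN and at 2.52, 0, 0.235, 0 and 9.32 CPM in wild-type replicates 1 to 5. The groups overlapped, since wild-type replicate 5 lay above every HSA-NRTN library but replicate 2. The log2 fold change of 1.90 (SE 1.24, 95% interval -0.54 to 4.33) did not pass (edgeR, adjusted p = 0.999), and it was 1.06 without HSA-NRTN replicate 2 and 3.67 without wild-type replicate 5.

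Summed over Hcn2, Hcn3 and Hcn4, the level was 2.37 to 7.65 CPM per kb in HSA-NRTN pools, and 0.541 to 3.58 CPM per kb in the wild-type group, with no test.

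In the authors' deposited table none of the 9 genes had an adjusted p under 0.05, where 1.04% of its genes did. That deposited table gives Kcnk3 a log2 fold change of 0.75 (adjusted p = 0.167), Kcnk2 one of -0.91 (adjusted p = 0.409) and Hcn3 one of 0.85 (adjusted p = 0.545). The unadjusted p of these genes in the authors' deposited table was under 0.05, as for 6.91% of its genes. For Kcnk9 that table gives a log2 fold change of 0.20, against 3.27 in the DESeq2 fit made here. For Hcn3 the DESeq2 fit gave 1.70, and for Kcnk1 the 2 values were 0.19 and 0.18. Deposited fold changes may be on another scale and are not to be compared in size with those given here.

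**Figure D4:**
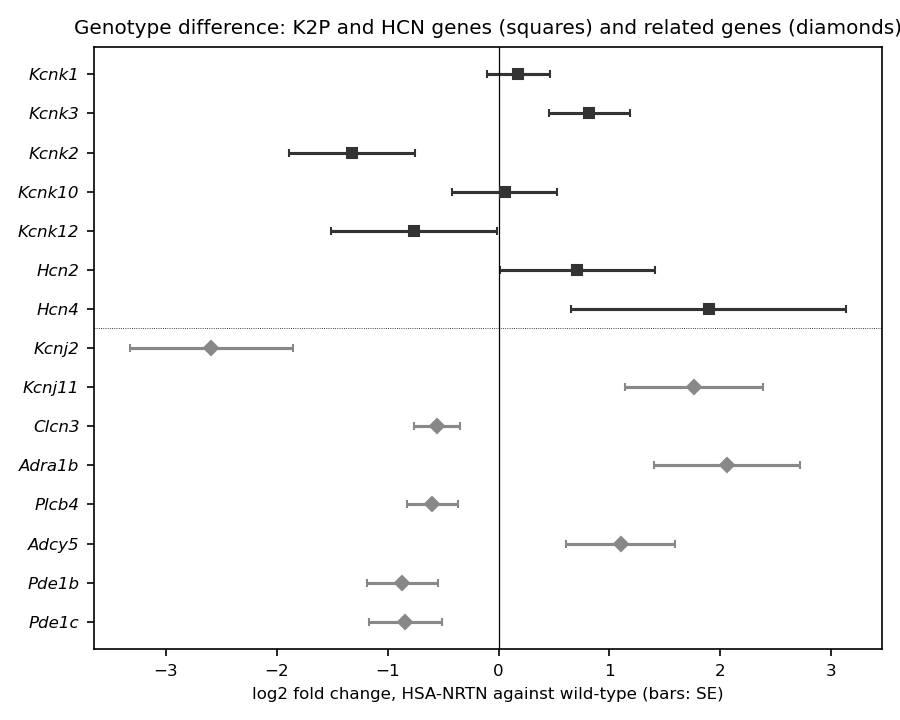
Log2 fold change of HSA-NRTN against wild-type pools, with bars of 1 standard error, for the tested K2P and HCN genes (squares) and related genes (diamonds). Kcnk3, at 0.82, and Kcnk2, at -1.33, lie on opposite sides of 0.

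The 9 genes lie on 9 different chromosomes, so none are neighbours. RefSeq promoters on GRCm38.p6, 250 bases before to 50 after a start site, were at hand for 6 of the 9 genes, as 10 sequences. They were searched on both strands for TCAAGGTCA, an element bound by estrogen-related receptors such as Esrrg, and for TGACGTCA, the cyclic AMP response element. The first was found in 1 of the 10, that of Hcn2, and in 0.423% of 32851 mouse promoters. The second was found in none of the 10 and in 1.79% of those promoters, so no matches overlapped. A match is a description of letters, not a bound site. The Hcn2 promoter is shown for its match, in capitals and read on the reverse strand, which begins 168 bases before the start site. Those of Hcn4 and of Kcnk2 at its most upstream start are shown as the HCN and K2P genes with the largest fold changes of the 7 in each direction.
Hcn2, chr10:79716384-79716683, forward strand: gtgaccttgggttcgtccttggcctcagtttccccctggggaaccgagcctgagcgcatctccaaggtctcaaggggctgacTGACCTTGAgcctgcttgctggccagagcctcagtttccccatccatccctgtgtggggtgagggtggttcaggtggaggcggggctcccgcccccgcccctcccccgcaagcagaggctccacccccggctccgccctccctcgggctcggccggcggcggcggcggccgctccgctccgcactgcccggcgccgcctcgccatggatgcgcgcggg
Hcn4, chr9:58822699-58822998, forward strand: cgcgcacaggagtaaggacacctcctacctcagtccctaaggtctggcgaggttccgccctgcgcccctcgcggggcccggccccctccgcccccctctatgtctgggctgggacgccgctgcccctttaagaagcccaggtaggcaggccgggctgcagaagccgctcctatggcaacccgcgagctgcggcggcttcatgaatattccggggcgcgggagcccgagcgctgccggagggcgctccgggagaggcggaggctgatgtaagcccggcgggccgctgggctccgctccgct
Kcnk2, chr1:189402224-189402523, reverse strand: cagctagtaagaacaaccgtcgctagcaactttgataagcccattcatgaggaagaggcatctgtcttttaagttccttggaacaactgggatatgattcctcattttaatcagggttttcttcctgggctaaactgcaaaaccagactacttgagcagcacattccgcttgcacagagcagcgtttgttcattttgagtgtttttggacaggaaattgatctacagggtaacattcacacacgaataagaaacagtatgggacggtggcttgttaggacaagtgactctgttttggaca

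As a reference for the libraries, 8 markers of fast and slow motor neurons were tested, and 4 had an unadjusted p under 0.05, Esrrg on the higher side and Chodl, Calca and Kcnq5 on the lower, where 4.83% of all genes had one. Esrrg, which marks slow motor neurons, was at 197 ± 41.9 against 127 ± 41.5 CPM (SD, n = 5 per group; edgeR, adjusted p = 0.949). Chodl, which marks fast ones, was at 593 ± 246.1 against 1814 ± 108 CPM and did not pass (edgeR, adjusted p = 0.0501). Calca was at 1138 ± 573 against 3677 ± 1466 CPM and Kcnq5 at 4.16 ± 3.77 against 26.7 ± 11.7 CPM (edgeR, adjusted p = 0.142 and 0.518). For these 2 genes and Chodl the genotype groups did not overlap. The authors' deposited table calls all 3, with an adjusted p of 2.52e-08 for Chodl, 0.000423 for Calca and 0.000339 for Kcnq5, and does not call Esrrg (adjusted p = 0.473).

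Genes that work with these channels were taken as 8 further lists of 86 genes, of which 60 were tested. None passed over all genes in edgeR, and an unadjusted p under 0.05 was reached by 9 of the 60, of which 4 were higher with the transgene and 5 were lower. Over all genes tested the share was 4.83%, with 2.41% higher and 2.42% lower, and the counts by list below are to be read against it. The lists were chosen with earlier results of these data known, so a share above that of all genes is a description and no test. Groups did not overlap for 3 of the 60, with HSA-NRTN above for 1 and below for 2, which 0.645% and 0.602% of all genes did.

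Of 14 inward rectifier genes 7 were tested, 3 with a positive and 4 with a negative log2 fold change (median -0.16), and 2 had an unadjusted p under 0.05. Kcnj2, which encodes a strong inward rectifier that lowers input resistance near rest, was at 0.890, 2.16, 23.3, 7.41 and 0.740 CPM in HSA-NRTN and at 57.4, 48.1, 40.8, 41.3 and 27.6 CPM in wild-type replicates 1 to 5. The lowest wild-type library lay above the highest HSA-NRTN library, which was replicate 3. Its log2 fold change, -2.59 (SE 0.74), missed the threshold over all genes (edgeR, adjusted p = 0.489). Leaving out HSA-NRTN replicate 3, the highest of its group, could only widen the difference, and gave -3.84 (edgeR, adjusted p = 0.0410). Kcnj2 was called in 2 of 24 alternatives, of which this was 1. The authors' deposited table gives Kcnj2 a log2 fold change of -1.64, which may be on another scale, with an adjusted p of 0.00208. Kcnj11, the pore subunit of the ATP-sensitive potassium channel, was at 12.7 ± 6.501 against 3.71 ± 1.53 CPM (SD, n = 5 per group), and the lowest HSA-NRTN library lay above the highest wild-type library (log2 fold change 1.76, SE 0.62; edgeR, adjusted p = 0.835).

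**Figure D5:**
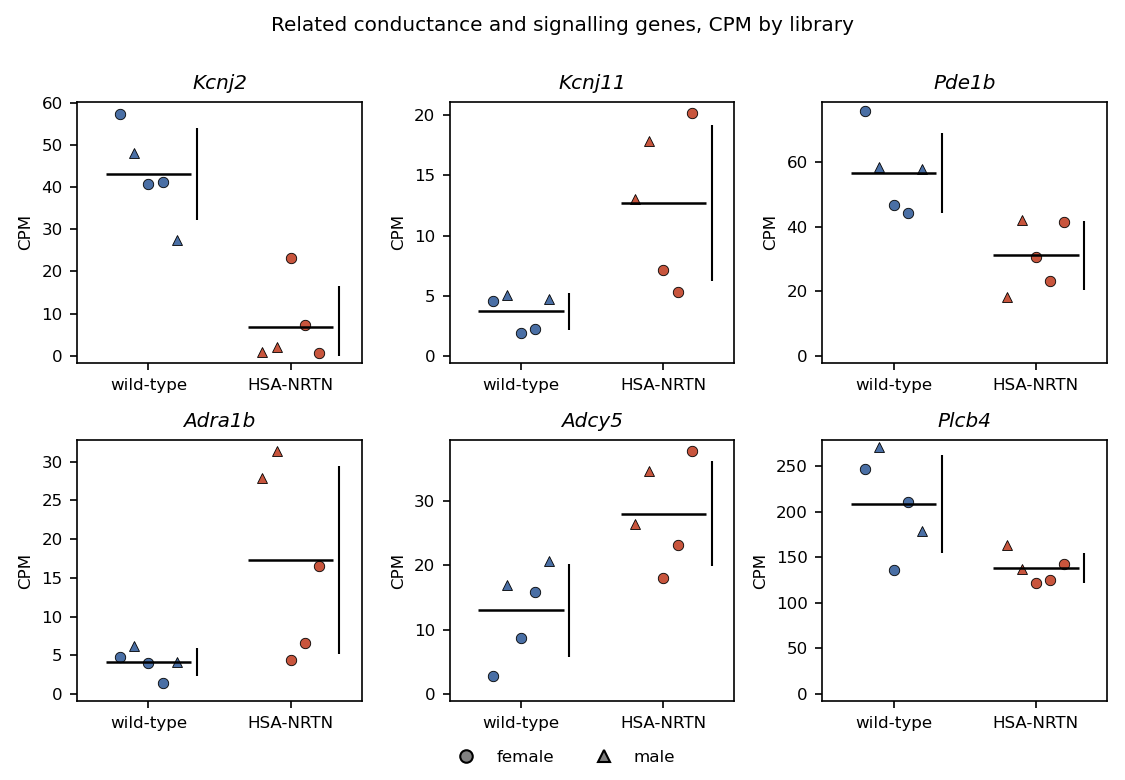
CPM of 6 related genes in each library, by genotype, with circles for females and triangles for males, horizontal lines for means and vertical lines for 1 SD on each side. The genotype groups do not overlap for Kcnj2, Kcnj11 and Pde1b and overlap for Adra1b, Adcy5 and Plcb4.

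Of 21 receptors and Gq transducers that act on leak or HCN channels 16 were tested, 8 with a positive and 8 with a negative log2 fold change (median -0.038), and 3 had an unadjusted p under 0.05. The adrenergic receptor gene Adra1b was at 17.3 ± 12.2 against 4.12 ± 1.77 CPM (SD, n = 5 per group; edgeR, adjusted p = 0.704). Plcb4, a phospholipase that acts below Gq, was at 138 ± 16.7 against 209 ± 53.7 CPM (edgeR, adjusted p = 0.913). The genotype groups overlapped for both of these genes.

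Of 15 enzymes that make or break down cyclic AMP 12 were tested, 9 with a positive and 3 with a negative log2 fold change (median 0.090), and 3 had an unadjusted p under 0.05. The adenylyl cyclase gene Adcy5 was at 27.9 ± 8.15 against 12.98 ± 7.17 CPM (SD, n = 5 per group; edgeR, adjusted p = 0.981). The calcium-stimulated phosphodiesterase genes had the opposite sign, Pde1b at 31.1 ± 10.7 against 56.7 ± 12.5 CPM and Pde1c at 57.7 ± 14.8 against 104 ± 49.1 CPM (edgeR, adjusted p = 0.876 and 0.921). For Pde1b the genotype groups did not overlap.

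Of 6 genes of chloride channels and sodium-activated potassium channels all 6 were tested and had a negative log2 fold change (median -0.44). Clcn3, a chloride-proton exchanger of endosomes and vesicles, was at 287 ± 55.3 against 422 ± 65.6 CPM (SD, n = 5 per group; edgeR, adjusted p = 0.890), and it alone of the 6 had an unadjusted p under 0.05. Of 5 sodium leak complex genes 4 were tested (median 0.17), the channel gene Nalcn at 174 ± 35.6 against 172 ± 58.8 CPM and its partner Unc80 at 458 ± 105 against 472 ± 89.5 CPM. Of 6 HCN partners 4 were tested (median -0.15), with Pex5l, the HCN trafficking subunit TRIP8b, at 85.9 ± 25.5 against 106 ± 17.0 CPM and the ubiquitin ligase gene Nedd4l at 37.0 ± 19.2 against 26.8 ± 11.1 CPM. All 10 K2P trafficking and anchoring partners were tested (median -0.029), with S100a10, which binds TASK-1, at 1109 ± 218 against 1206 ± 267 CPM and the 14-3-3 gene Ywhab at 1193 ± 167 against 1195 ± 290.3 CPM. None of the tested genes of these last 3 lists had an unadjusted p under 0.05. The other 8 K2P genes listed were too low to test. Kcnk13, which encodes THIK-1, had 68 counts with the transgene and 25 without, Kcnk4 had 37 and 39, Kcnk5 had 6 and 0, Kcnk6 had 0 and 1, Kcnk7 had 1 and 0, and Kcnk15, Kcnk16 and Kcnk18 had 0 counts in all libraries.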

How the data were processed

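Per the submitters' processing notes the tools were STAR 2.5.0a, HTSeq and DESeq2, with build GRCm38.p6. For annotation release and strand setting, no source used here gives a value. Whole-number counts per gene were deposited, with 92 spike-in sequences and 5 tally entries that were kept out of library sizes and tests. Of all reads, 13.5% to 42.3% were counted to genes and 0.737% to 2.12% were ambiguous. Per the labels' protocols, Smart-seq2 with Tn5 was used, which marks no strand and no molecule, so floors cover counting error only. The authors' deposited signal is counts divided by 1 size factor per library (relative spread of the ratio 1.41e-15) and entered no test. The authors' deposited comparison table gives log2 fold changes, p-values, a score and the mean signal, and its model formula is not stated.

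In R 4.3.3, genes kept by filterByExpr were scaled by TMM and tested for genotype in edgeR 4.0.16 (quasi-likelihood, no covariate), with Benjamini-Hochberg adjustment over 11630 genes and a threshold of 0.05. Sex was tested with genotype in the model. Alternatives used DESeq2 1.42.0 and limma 3.58.1. The code was checked on simulated counts. Standard errors derive from the F statistic. Gene coordinates and exon lengths came from GENCODE M21 (GRCm38). Permutation tests are exact and two-sided. Replicates are separate mice, numbered in record order. The genes, lists and tests were chosen with earlier results of these data known. All 9 genes are named. Of each other list, up to 4 genes of smallest unadjusted p under 0.05 are named, or else up to 2 of highest level. The low K2P genes given by counts fall outside that rule and were named after their values were seen. Some genes of the lists are not reported here, and the counts by list include them.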

Additional observations from a re-analysis of the deposited data

Results flagged for a closer look

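In groups of 5 libraries, a library was singled out when its gap to the nearest other, over the range of the group, passed Dixon's 95% critical value. For normally distributed values chance does this in about 1 in 20 groups, and 18 groups were looked at. CPM of genes with few counts need not be so distributed, and a group with counts in only 1 library is always flagged. The flags are thus not to be set against that rate. HSA-NRTN replicate 5 stood out for Kcnk1 (99.4 CPM), HSA-NRTN replicate 2 for Kcnk9 (33.0 CPM) and for Kcnk10 (41.1 CPM), wild-type replicate 3 for Kcnk9 (4.22 CPM, with 0 in the other 4) and wild-type replicate 5 for Hcn4 (9.32 CPM). The genotype difference of Kcnk1 had opposite directions in females and males in every library, with an interaction of -1.07 on the log2 scale that did not pass (edgeR, adjusted p = 0.922).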

How the results depend on the processing

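None of the tested genes of the 9 was called for genotype under any of 24 alternatives, nor for sex or the interaction under any of 13. Kcnk2 kept a negative (-1.56 to -1.02) and Kcnk3 a positive sign (0.49 to 1.10) under all 24, with an unadjusted p under 0.05 in 14 each. Hcn2 and Hcn4 kept a positive sign under all 24 and Kcnk12 a negative one under the 23 that hold it. Kcnk1 turned to -0.44 in males alone. The run of animal numbers, used as a covariate, set HSA-NRTN 1 to 3 and wild-type 1 against the other libraries, so genotype was uneven over it. In that fit Kcnk3 had a log2 fold change of 0.78 (edgeR, unadjusted p = 0.0895). Kcnk10 turned negative in limma voom (-0.19; -0.45 with sample quality weights), with sex (-0.050) or the run of animal numbers (-0.19) as covariate, in females alone (-0.51) and with HSA-NRTN 2 and wild-type 1 both left out (-0.34), and it ran from -0.45 to 0.21 with 1 library left out. Over all genes, the 1 call became 126 in DESeq2, 81 with no filter beyond 1 count, 12 and 3 in limma voom with and without quality weights, 10 with genes detected, 5 with sex and 0 with the run of animal numbers as covariate, 9 with robust shrinkage and 0 in females or males alone. Leaving out single libraries gave 0 to 13 calls, 13 of them without HSA-NRTN 3, 2 without HSA-NRTN 1, HSA-NRTN 2 or wild-type 3, and 0 without wild-type 2. The 4 steps in the order of levels became 2 to 4 in the same way (2 in the absence of HSA-NRTN 1 or 3 or wild-type 2, 3 or 4), and 0 in wild-type libraries alone, where an exact p cannot fall under 0.0625. Kcnj2 was also called with no filter beyond 1 count (adjusted p = 0.0193), and its adjusted p was at most 0.998 over 24 alternatives. The causes were not tested. Without wild-type replicate 3 the Kcnk9 ratio has no value. No paired analysis was possible because the labels give the groups no shared replicate numbers. Genes near 1 CPM rest on few counts.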

Other observations

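Genes most like the K2P gene and the HCN gene of highest level among the 9 were sought by Pearson's r of log2 CPM over 10 libraries, among 11630 genes that share depth and scaling. As the highest of so many values they carry no p. For Kcnk1, they were Plekhb2 (r = 0.95, Spearman's rho = 0.89, r = 0.89 without the 2 farthest libraries), Dmp1 (r = 0.94, Spearman's rho = 0.93, r = 0.91 without the 2 farthest libraries) and Txlng (r = 0.93, Spearman's rho = 0.98, r = 0.82 without them). For Hcn2, they were Prr14 (r = 0.95, Spearman's rho = 0.82, r = 0.76 without the 2 farthest libraries), Socs4 (r = 0.93, Spearman's rho = 0.68, r = 0.66 without the 2 farthest libraries) and Lrch1 (r = 0.92, Spearman's rho = 0.67, r = 0.29 without them). The r of 0.92 for Lrch1 rests on wild-type replicates 3 and 4, the 2 libraries left out for Hcn2.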
